A study of Mus musculus with 6 samples.

Results

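The forkhead transcription factors of the developing subiculum and retrosplenial cortex were examined in newborn D6/Zbtb20S mice and wildtype littermates. Members were the genes whose single symbol in the platform annotation was Fox, a letter from a to s and a number, with an optional last letter. This gave 37 of 18193 measured genes, read by 82 of 45037 probe sets, in 17 lettered subfamilies. A gene with several probe sets was represented by the one with the highest mean over all 6 arrays. Forkhead genes that the annotation does not name by a single symbol were not analysed here.

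The tissue was dissected on postnatal day 1 from C57BL/6 mice, and the labels describe the transgenic areas as transformed towards CA1, a pyramidal field of the hippocampus. There were 3 wildtype and 3 D6/Zbtb20S arrays, each of RNA pooled from 7 animals. The transgene carries Zbtb20, a zinc finger repressor of hippocampal pyramidal neurons, and D6 is a regulatory element of the mouse Dach1 gene used to drive transgenes in developing cortex and hippocampus; the labels do not list the cells it marks here. Whether the 3 pools of a genotype share litters is not given in the sources used here, and p-values therefore cover only how these pools vary, which may be technical. As whole tissue was measured, fewer cells of a type and less RNA per cell cannot be told apart.

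Forkhead factors bind DNA through a winged helix domain and are grouped by letter according to the likeness of that domain. FoxP factors bind DNA as dimers with each other and act mainly as repressors. Foxp1 marks several cortical layers, CA1 and the striatum, and Foxp2 marks corticothalamic neurons of layer VI, the thalamus and the striatum. FoxO factors are held out of the nucleus when insulin and growth factor signalling activates the kinase Akt, and otherwise switch on genes of cell cycle arrest, cell death and stress resistance. Other members define cells that brain tissue can hold, such as Foxj1 in cells with motile cilia, Foxm1 in dividing cells, Foxc1 in meninges, Foxf2 in pericytes and Foxq1 in brain endothelium.

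Of the 37 genes, 4 differed between the genotypes: Foxp1 was higher in D6/Zbtb20S tissue, and Foxo1, Foxp2 and Foxn3 were lower. These calls were made with limma at an adjusted p under 0.05. They are 10.8% of the members, against 7.71% of all genes, and the share is thus near the background. In the higher direction 1 member (2.70%) was called, against 4.06% of all genes, and in the lower direction 3 (8.11%), against 3.64%. The median log2 difference, D6/Zbtb20S minus wildtype, was -0.016 over the members and -0.015 over all genes, with 18 members above zero and 19 below. Without wildtype replicate 2, 2 members were called (Foxp1 and Foxo1), and these were also the 2 called from the mean of each gene's probe sets. Of the 37 genes, 17 read above the median of the array on all 6 arrays (45.9%, against 61.6% of all genes), 16 on none and 4 on some. All 4 called genes were among the 17.

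**Figure D1:**
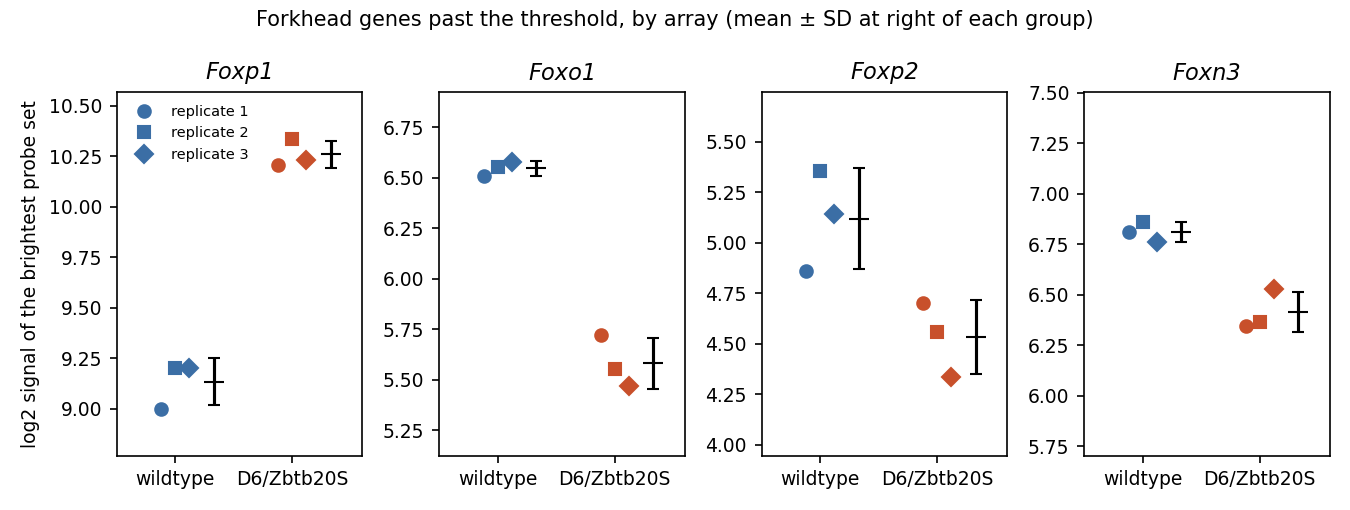
Log2 signal (y axis) of the brightest probe set of Foxp1, Foxo1, Foxp2 and Foxn3 in each array, wildtype in blue and D6/Zbtb20S in red, with marker shapes for replicates 1 to 3 and the mean ± SD (n = 3) beside each group. Each panel spans the same number of log2 units. The groups of no gene overlap, and the gap is widest for Foxp1, from 9.20 in the highest wildtype array to 10.21 in the lowest transgenic one.

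Foxp1 was 2.18-fold higher in D6/Zbtb20S tissue. Its brightest probe set, 1435222_at, read 9.001, 9.20 and 9.20 in wildtype replicates 1, 2 and 3, and 10.21, 10.34 and 10.23 in the transgenic replicates. The transgenic arrays lay above the wildtype arrays with no overlap. The log2 means were 9.13 ± 0.12 (SD, n = 3) and 10.26 ± 0.07 (SD, n = 3), a difference of 1.12 ± 0.09 (standard error, 95% interval 0.93 to 1.32, limma adjusted p = 5.32e-05).

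All 8 Foxp1 probe sets were higher in transgenic tissue and passed the threshold over all probe sets (adjusted p from 0.000146 to 0.0485). Their log2 differences ran from 1.12 to 1.64, or 2.18-fold to 3.11-fold, with a median of 1.26. The largest was that of 1455242_at, which read 7.56, 7.87 and 8.16 in wildtype and 9.45, 9.61 and 9.43 in transgenic arrays. The dimmest set, 1443258_at, was under the array median in 2 wildtype arrays, and its groups did not overlap either. The difference was therefore seen by every probe set, with sizes that varied by 0.51 on the log2 scale; that variation was not tested.

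Wildtype replicate 3 did not take the same place on all Foxp1 probe sets. Against the mean of wildtype replicates 1 and 2 it read 0.92 higher on 1438802_at, 0.59 higher on 1421140_a_at, 0.52 higher on 1443258_at and 0.45 higher on 1455242_at. On 1421141_a_at and 1421142_s_at its differences from that mean were -0.38 and -0.40. D6/Zbtb20S replicate 3 took a like place among the transgenic arrays on most of these sets. It was the highest on 1438802_at (6.45), 1421140_a_at (9.38) and 1443258_at (5.28), and the lowest on 1421141_a_at (7.69) and 1421142_s_at (7.73). On 1455242_at it was the lowest (9.43), unlike wildtype replicate 3. Wildtype replicate 3 also stood apart on Zbtb20. On all 9 Zbtb20 probe sets it was the highest wildtype array, and on 7 of them it lay above every transgenic array. On 1422064_a_at it read 7.64, between the other wildtype arrays (5.84 and 6.44) and the transgenic ones (8.88 to 9.10). That set was 5.04-fold higher in transgenic tissue (limma adjusted p = 0.00904 over all probe sets), and the other 8 Zbtb20 sets did not pass. For the actin control, the 3′ probe set exceeded the 5′ one by 1.31 (log2) on this array, by 0.53 and 0.88 in wildtype replicates 1 and 2, and by 0.80 to 0.91 in transgenic tissue. Its part in the Foxp1 values was not tested. Without this array all 8 probe sets again passed, with log2 differences from 1.16 to 1.79. Leaving out another array kept 6 or 7 of them past the threshold: 6 without wildtype replicate 2 or D6/Zbtb20S replicate 1, and 7 without wildtype replicate 1 or D6/Zbtb20S replicate 2 or 3.

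The RefSeq table gives 3 transcription start sites for Foxp1 on the minus strand of chromosome 6 (GRCm38.p6), and their windows from 250 bases before to 50 after the start are shown because Foxp1 was the forkhead gene that rose. Capitals mark TGTTTA, the core of the forkhead recognition sequence, or its reverse complement TAAACA.
Foxp1, start 1, chr6:99520944-99521243, minus strand: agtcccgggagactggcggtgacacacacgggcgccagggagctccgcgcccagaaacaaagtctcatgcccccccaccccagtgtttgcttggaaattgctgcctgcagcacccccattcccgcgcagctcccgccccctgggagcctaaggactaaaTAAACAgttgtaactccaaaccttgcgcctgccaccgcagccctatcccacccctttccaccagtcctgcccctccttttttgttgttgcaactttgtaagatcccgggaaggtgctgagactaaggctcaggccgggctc
Foxp1, start 2, chr6:99266466-99266765, minus strand: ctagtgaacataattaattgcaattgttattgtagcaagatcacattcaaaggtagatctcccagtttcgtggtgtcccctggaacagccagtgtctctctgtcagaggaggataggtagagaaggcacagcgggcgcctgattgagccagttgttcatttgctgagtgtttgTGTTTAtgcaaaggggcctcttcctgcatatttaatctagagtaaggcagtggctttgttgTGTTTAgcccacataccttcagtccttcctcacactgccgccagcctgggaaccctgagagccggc
Foxp1, start 3, chr6:99028249-99028548, minus strand: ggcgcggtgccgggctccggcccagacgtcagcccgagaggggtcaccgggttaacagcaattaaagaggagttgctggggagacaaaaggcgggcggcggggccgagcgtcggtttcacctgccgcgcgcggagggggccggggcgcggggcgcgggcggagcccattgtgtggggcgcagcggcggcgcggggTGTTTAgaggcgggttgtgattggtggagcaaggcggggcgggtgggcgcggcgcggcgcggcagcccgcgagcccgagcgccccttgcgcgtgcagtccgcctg
The core occurred 1, 2 and 1 times in these windows, and the longer TGTTTAC occurred in none of them on either strand. Of all 32851 start windows in the table, 13.4% held the core on at least 1 strand and 3.65% held TGTTTAC, which contains it. Of 29 windows of 24 forkhead genes, 5 held the core (17.2%). These 5 include all of the Foxp1 windows shown, so that share is no separate background for Foxp1. The windows also differed in base composition: GC content was 60.3%, 48.7% and 75.3%, with 13, 5 and 44 CpG dinucleotides. A match describes the letters of a window, and which start the Foxp1 probe sets read was not examined.

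Foxp2, the other FoxP gene of deep cortical layers, was 1.502-fold lower on its brightest probe set, 1438232_at. That set read 4.86, 5.36 and 5.14 in wildtype and 4.70, 4.56 and 4.34 in transgenic arrays. Transgenic arrays were lower without overlap, but the gap between the nearest arrays was small beside the wildtype spread (5.12 ± 0.25 against 4.53 ± 0.18, SD, n = 3). The difference was -0.59 ± 0.14 (limma adjusted p = 0.0289). Dropping wildtype replicate 2 or 3, or the second or the third transgenic array, ended the call (adjusted p up to 0.115). Adjusted over all probe sets, the set missed the threshold (adjusted p = 0.0527). A second set, 1440108_at, had a difference of -0.35 ± 0.09 (adjusted p = 0.0532) and read under the array median on every array. The other 4 sets had log2 differences from -0.12 to 0.06. One of them, 1438231_at, was above the array median on all 6 arrays, and read 4.31, 4.88 and 4.92 in wildtype and 4.81, 4.75 and 4.72 in transgenic arrays.

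Foxp4, which can pair with Foxp1 and Foxp2, read 5.70, 5.92 and 5.71 in wildtype and 6.07, 5.92 and 5.77 in transgenic arrays. These overlapped, and the difference of 0.15 ± 0.10 did not pass (95% interval -0.08 to 0.38, adjusted p = 0.486). Foxp3, the factor of regulatory T cells, was under the array median throughout (adjusted p = 0.749). Within each array one member's log2 value was subtracted from another's, and the mean was compared between genotypes (D6/Zbtb20S minus wildtype). The difference was 1.71 for Foxp1 minus Foxp2, 0.98 for Foxp1 minus Foxp4 and -0.73 for Foxp2 minus Foxp4. These pairs start from a gene already called, and 3 against 3 arrays cannot give an exact two-sided permutation p under 0.1, so the values are a description.

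**Figure D2:**
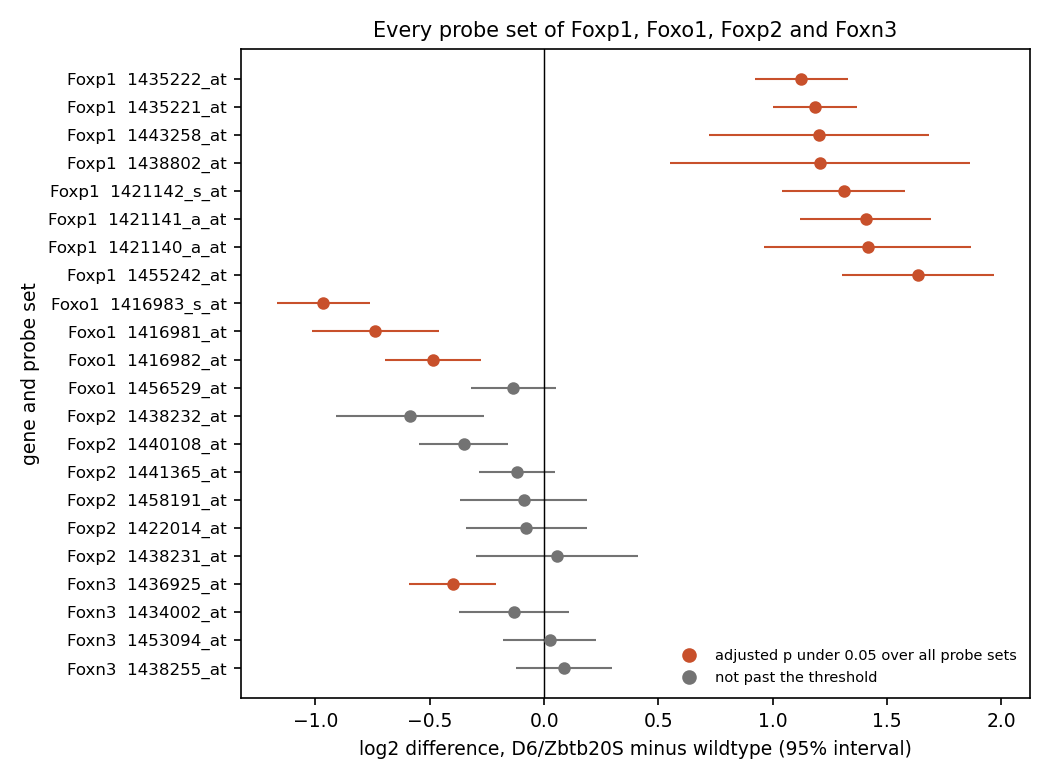
Log2 difference (x axis, D6/Zbtb20S minus wildtype, n = 3 and 3 arrays) with its 95% interval for each probe set of Foxp1, Foxo1, Foxp2 and Foxn3 (y axis), red where the limma adjusted p over all probe sets was under 0.05. All 8 Foxp1 sets and 3 of 4 Foxo1 sets are red, against 0 of 6 for Foxp2 and 1 of 4 for Foxn3.

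Of the 82 forkhead probe sets, 12 (14.6%) passed over all probe sets, against 5.52% of all probe sets. Higher sets numbered 8, against a background of 3.4%, and lower sets 4, against 2.11%. As 8 of the 12 read Foxp1 and 3 read Foxo1, they are not independent of each other. The remaining 1 read Foxn3.

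Foxo1 was 1.95-fold lower in D6/Zbtb20S tissue. Probe set 1416983_s_at read 6.51, 6.55 and 6.58 in wildtype and 5.72, 5.55 and 5.47 in transgenic arrays. Every transgenic array lay below every wildtype array, with means of 6.55 ± 0.04 and 5.58 ± 0.13 (SD, n = 3). The difference was -0.97 ± 0.09 (95% interval -1.16 to -0.77, limma adjusted p = 0.000133). Sets with names ending in _s_at can match more than 1 transcript, but 2 of the other 3 Foxo1 sets passed too: 1416981_at with -0.74 ± 0.12 (adjusted p = 0.0104) and 1416982_at with -0.49 ± 0.09 (adjusted p = 0.0194). Without wildtype replicate 2 or D6/Zbtb20S replicate 1, 1 of the Foxo1 sets passed, and without D6/Zbtb20S replicate 2, 2 passed. The fourth set, 1456529_at, was under the array median on all arrays (-0.13, adjusted p = 0.449). The mean over the 4 sets was smaller than the brightest set's difference and kept the call (-0.58, adjusted p = 0.000866).

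The single Foxo1 start window of the table is shown as that of the forkhead gene that fell most. It lies on the plus strand of chromosome 3 (GRCm38.p6), with a GC content of 61.3% and 31 CpG dinucleotides, and holds no capitals because TGTTTA occurs on neither strand.
Foxo1, chr3:52268087-52268386, plus strand: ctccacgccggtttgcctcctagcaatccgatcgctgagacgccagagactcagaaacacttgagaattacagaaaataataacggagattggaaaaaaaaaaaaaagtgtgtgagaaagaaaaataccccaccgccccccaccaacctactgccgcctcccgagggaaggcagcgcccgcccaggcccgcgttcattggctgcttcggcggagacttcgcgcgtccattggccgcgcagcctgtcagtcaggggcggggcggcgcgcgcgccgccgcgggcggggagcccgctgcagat

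The other FoxO genes did not pass. Foxo3, the FoxO factor tied to stress resistance in many adult tissues, read 6.45, 6.59 and 6.54 in wildtype and 6.62, 6.47 and 6.18 in transgenic arrays on 1434832_at, with overlap (-0.11 ± 0.11, adjusted p = 0.656). A second Foxo3 set, 1434831_a_at, had a difference of -0.28 ± 0.08 without overlap, and missed the threshold over all probe sets (adjusted p = 0.116). Foxo4 read 5.45, 5.50 and 5.45 in wildtype and 5.65, 5.46 and 5.67 in transgenic arrays (0.12 ± 0.08, adjusted p = 0.476). The 95% intervals were -0.36 to 0.15 for Foxo3 and -0.07 to 0.31 for Foxo4, so a change as large as that of Foxo1 lay outside both. Within arrays the genotype difference of Foxo1 minus Foxo3 was -0.86 and that of Foxo1 minus Foxo4 was -1.09, given as a description for the same reasons.

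Genes of the insulin and Akt pathway, which controls FoxO proteins, were mostly not called. Of 18 measured, 1 rose and 1 fell (11.1%, against 7.71% of all genes, which is near the background), with a median of -0.08. Pik3r1, the regulatory subunit of the lipid kinase that activates Akt, was 1.72-fold higher (0.78 ± 0.09, adjusted p = 0.000563), from 6.65, 6.73 and 6.45 to 7.37, 7.41 and 7.40. With the mean of its probe sets the difference was 0.42 and kept the call. Sgk1, a kinase that phosphorylates FoxO factors as Akt does, was 1.42-fold lower (-0.51 ± 0.10, adjusted p = 0.0112), a call lost without wildtype replicate 2 (adjusted p = 0.0592). Igf1, named after its values were seen, read 4.91, 5.30 and 6.65 in wildtype and 6.71, 6.66 and 6.82 in transgenic arrays, a difference of 1.11 ± 0.35 that missed the threshold (adjusted p = 0.0986). Wildtype replicate 3 lay next to the lowest transgenic array, and without it 2 genes of the list were higher.

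Known FoxO target genes went both ways while Foxo1 was lower. Of 25 measured, 2 rose, 4 fell and 19 did not pass (24% called, against 7.71% of all genes), with a median of 0.004. The shares are not quite alike, as 18 of the 25 read above the median on all arrays. In a fit of only the genes above the array median on at least 3 arrays, 11.9% were called. This list too was chosen with earlier results of these data known. Bcl6, a transcriptional repressor, read 4.76, 5.26 and 5.84 in wildtype and 8.16, 7.91 and 7.90 in transgenic arrays, a 6.51-fold rise (2.70 ± 0.22, adjusted p = 7.25e-05). Bcl2l11, which encodes the death-promoting protein Bim, read 6.70, 6.98 and 6.68 against 5.39, 5.39 and 5.14, a 2.80-fold fall (-1.48 ± 0.11, adjusted p = 4.14e-05). Both had groups far apart, in opposite directions. Averaged over their probe sets both kept their call at smaller sizes, 1.65 for Bcl6 and -0.60 for Bcl2l11, of whose 5 probe sets 3 were called. Sesn3, a stress-induced regulator of mTOR signalling, was 1.95-fold lower (-0.96 ± 0.10, adjusted p = 0.000258), and Ccng2, an atypical cyclin of cell cycle arrest, was 1.41-fold higher (0.49 ± 0.09, adjusted p = 0.00925). The remaining falls, named to complete the count, were Gadd45a (-0.54), under the array median on every array, and Cited2 (-0.38). Bcl6 lost its call in an ordinary linear model (adjusted p = 0.0598), as did Ccng2 (adjusted p = 0.105).

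**Figure D3:**
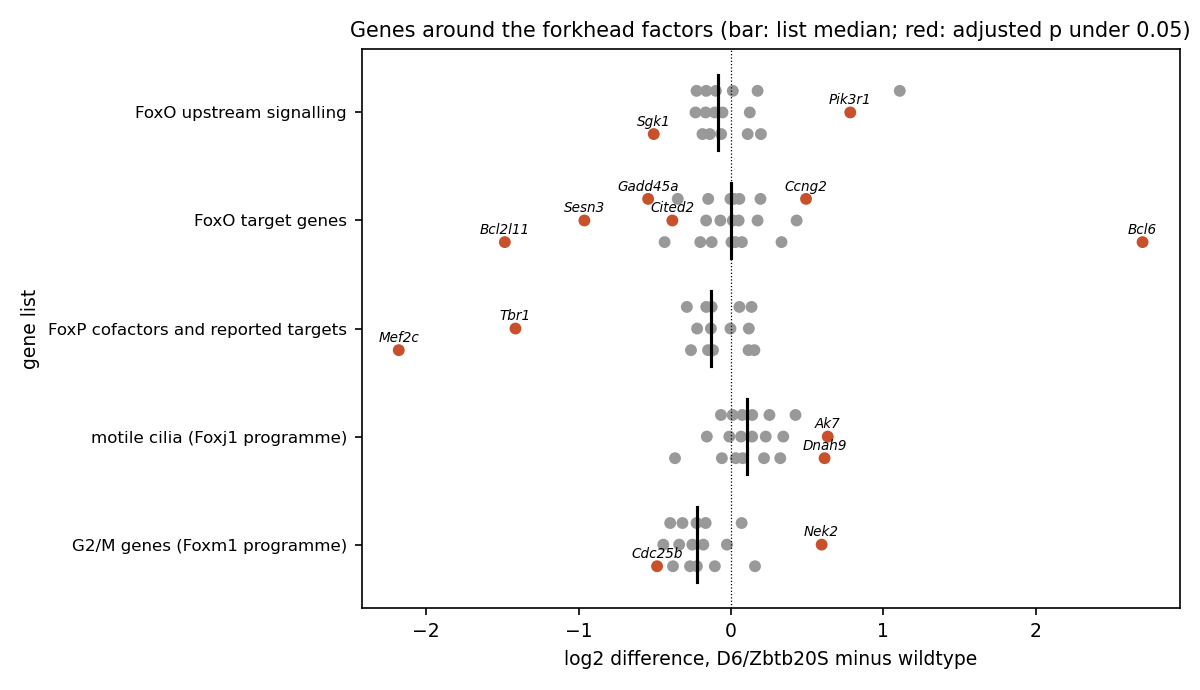
Log2 difference (x axis, D6/Zbtb20S minus wildtype) of each measured gene in 5 lists tied to forkhead factors (y axis), red and named where the limma adjusted p was under 0.05, with a black bar at the list median. Points are spread vertically for legibility. In the FoxO target list red points lie on both sides of zero, from Bcl2l11 at -1.48 to Bcl6 at 2.70.

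Among 16 measured cofactors and reported targets of FoxP factors, 0 rose and 2 fell (12.5%, against 7.71% of all genes), with a median of -0.13. Mef2c, a transcription factor of synapse development that Foxp2 is reported to repress, was 4.53-fold lower (-2.18 ± 0.07, adjusted p = 5.57e-07). Tbr1, a T-box factor of deep-layer neurons whose protein binds Foxp2, was 2.66-fold lower (-1.41 ± 0.12, adjusted p = 7.14e-05). Mef2c read 9.85, 9.91 and 9.86 in wildtype and 7.64, 7.72 and 7.72 in transgenic arrays, and Tbr1 7.52, 7.89 and 7.46 against 6.27, 6.22 and 6.14. The list was chosen with results of these arrays known and is no independent evidence of its direction.

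Foxn3, a repressor linked to the DNA damage checkpoint, was 1.32-fold lower. Probe set 1436925_at read 6.81, 6.86 and 6.76 in wildtype and 6.35, 6.37 and 6.53 in transgenic arrays. The groups did not overlap, and the difference was -0.40 ± 0.08 (95% interval -0.58 to -0.21, limma adjusted p = 0.0166). None of the 3 other Foxn3 sets passed. The nearest in signal, 1434002_at, read 6.60, 6.69 and 6.53 against 6.61, 6.54 and 6.28, with overlap. The mean of the 4 sets was -0.10 (adjusted p = 0.44), and dropping wildtype replicate 2, or the first or the second transgenic array, also ended the call (adjusted p up to 0.0874).

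The relatives of Foxn3 did not pass. Foxn2 overlapped between the groups (0.02 ± 0.15, adjusted p = 0.959), as did Foxn4, a factor of retinal and spinal cord progenitors (-0.07 ± 0.10, adjusted p = 0.76). Foxn1, the factor of thymic epithelium, read 2.31, 2.40 and 2.46 in wildtype and 2.11, 2.05 and 2.18 in transgenic arrays. Its groups did not overlap, but all values lay under the array median, and the difference of -0.28 ± 0.08 missed the threshold (adjusted p = 0.0739). In all, 6 members (16.2%) had groups that did not overlap, against 26.1% of all genes. They were the 4 called genes, Foxn1 and Foxj2, whose difference was 0.08 (adjusted p = 0.635).

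None of the FoxK and FoxJ genes passed. Foxk1 and Foxk2 are broadly expressed regulators of metabolism and autophagy genes. Their brightest sets differed by 0.02 (95% interval -0.16 to 0.19) and -0.02 (95% interval -0.21 to 0.18). The other 4 Foxk2 sets, all above the array median, had differences from -0.24 to -0.01, and none passed. Foxj3, a factor broadly present in neural tissue, read 8.82, 8.65 and 8.60 in wildtype and 8.86, 8.93 and 8.71 in transgenic arrays (0.14 ± 0.09, adjusted p = 0.45). The groups overlapped.

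Foxj1, the master regulator of motile cilia, read 4.16, 3.80 and 3.81 in wildtype and 4.52, 3.92 and 4.43 in transgenic arrays. The overlap came from D6/Zbtb20S replicate 2, and the difference of 0.37 ± 0.16 did not pass (adjusted p = 0.238). Without that array it was 0.55 (adjusted p = 0.0424). With any other array left out it did not pass (0.25 to 0.48, limma adjusted p from 0.155 to 0.57). Of 20 measured motile cilia genes, 2 were called (10%, against 7.71% of all genes, which is near the background) and both were higher: the adenylate kinase Ak7 (0.64 ± 0.10, adjusted p = 0.00514) and the axonemal dynein Dnah9 (0.61 ± 0.13, adjusted p = 0.017). Dnah9 missed the threshold once wildtype replicate 2 or the third transgenic array was dropped (adjusted p up to 0.0651), and its probe set mean was 0.35. The list median was 0.11, 15 of 20 differences were positive, and 9 of the genes were under the median on every array. Its summed linear signal was 461 to 512 in wildtype and 473 to 517 in transgenic arrays, which overlap.

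Foxm1, which drives genes of mitotic entry, read 5.61, 5.68 and 5.80 in wildtype and 5.70, 5.75 and 5.74 in transgenic arrays. These values overlapped, with a difference of 0.03 ± 0.08 (95% interval -0.15 to 0.22, adjusted p = 0.863). Of 17 measured genes of its mitotic programme, Nek2 was higher (0.60 ± 0.12) and Cdc25b lower (-0.48 ± 0.10), and 15 did not pass (11.8% called, against 7.71% of all genes, which is near the background), with a list median of -0.23. Only 3 of the 17 differences were positive. The summed linear signal was 463 to 651 in wildtype and 416 to 523 in transgenic arrays, which overlap. Nek2, a centrosomal kinase, missed the threshold once the first or the third transgenic array was dropped (adjusted p up to 0.0845) and when averaged over its probe sets (0.25, adjusted p = 0.096). Cdc25b, a phosphatase of mitotic entry, did so without wildtype replicate 2 or the first transgenic array (adjusted p up to 0.0704).

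Forkhead genes of vessels and meninges did not pass. Foxc1, needed for meningeal development, read 4.19, 4.61 and 4.25 in wildtype and 4.37, 3.78 and 4.22 in transgenic arrays, with overlap (-0.22 ± 0.16, adjusted p = 0.494). Foxc2, its relative in mesenchyme and lymphatic vessels, was under the array median on all arrays (-0.24 ± 0.15, adjusted p = 0.422), as was Foxf2, a factor of brain pericytes (-0.21 ± 0.11, adjusted p = 0.333). Foxf1, a factor of vessel and visceral mesenchyme, differed by -0.22 ± 0.12 (adjusted p = 0.346). Foxq1, a gene of brain endothelium, read 4.51, 4.56 and 4.92 in wildtype and 4.997, 4.73 and 4.92 in transgenic arrays (0.22 ± 0.12, adjusted p = 0.354). On their brightest sets the differences of Foxc1, Foxc2, Foxf1 and Foxf2 were all negative, but none passed. The second sets did not repeat this: they differed by 0.07 for Foxc1, 0.02 for Foxf1 and -0.005 for Foxf2. That Foxf1 set was above the array median on all 6 arrays. The markers of these cells gave 0 of 12 meningeal fibroblast genes called (median -0.10), 0 of 10 pericyte and mural genes (median 0.007) and 1 of 12 endothelial genes, the glucose transporter gene Slc2a1, which was lower (-0.36, list median -0.10). The Slc2a1 call was lost on leaving out any 1 array other than wildtype replicate 1 (adjusted p up to 0.122). At an unadjusted p under 0.05, 2 of the 33 uncalled forkhead genes, Foxn1 and Foxj1, would pass. The share of all genes at that level was not counted, so no excess among the members can be read from this.

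The members best known outside the forebrain read low. Foxa1, Foxa2 and Foxa3, pioneer factors of endoderm and midbrain dopamine neurons, were under the array median on every array. So were Foxb1, Foxd1, Foxd2, Foxd3, Foxd4, Foxe3, Foxi1, Foxl1 and Foxs1. Foxb2 lay above it on 2 arrays. Foxh1, a partner of Smad proteins, and Foxl2, an ovarian factor, lay above it on all arrays, but only on their brightest sets. Their other sets, 1422213_s_at and 1437779_at for Foxh1 and 1444002_at for Foxl2, were under it on every array. RMA signals near the floor of an array understate changes, so the small differences of these genes do not show that their levels were alike. Over the 33 uncalled members, log2 differences ran from -0.28 to 0.37, and adjusted p from 0.0739 to 0.996. For 30 of the 33 the 95% interval lay within 0.5 of zero on either side, or within 1.41-fold. Foxc1, Foxc2 and Foxj1 had wider ones, reaching -0.58, -0.58 and 0.73.

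**Figure D4:**
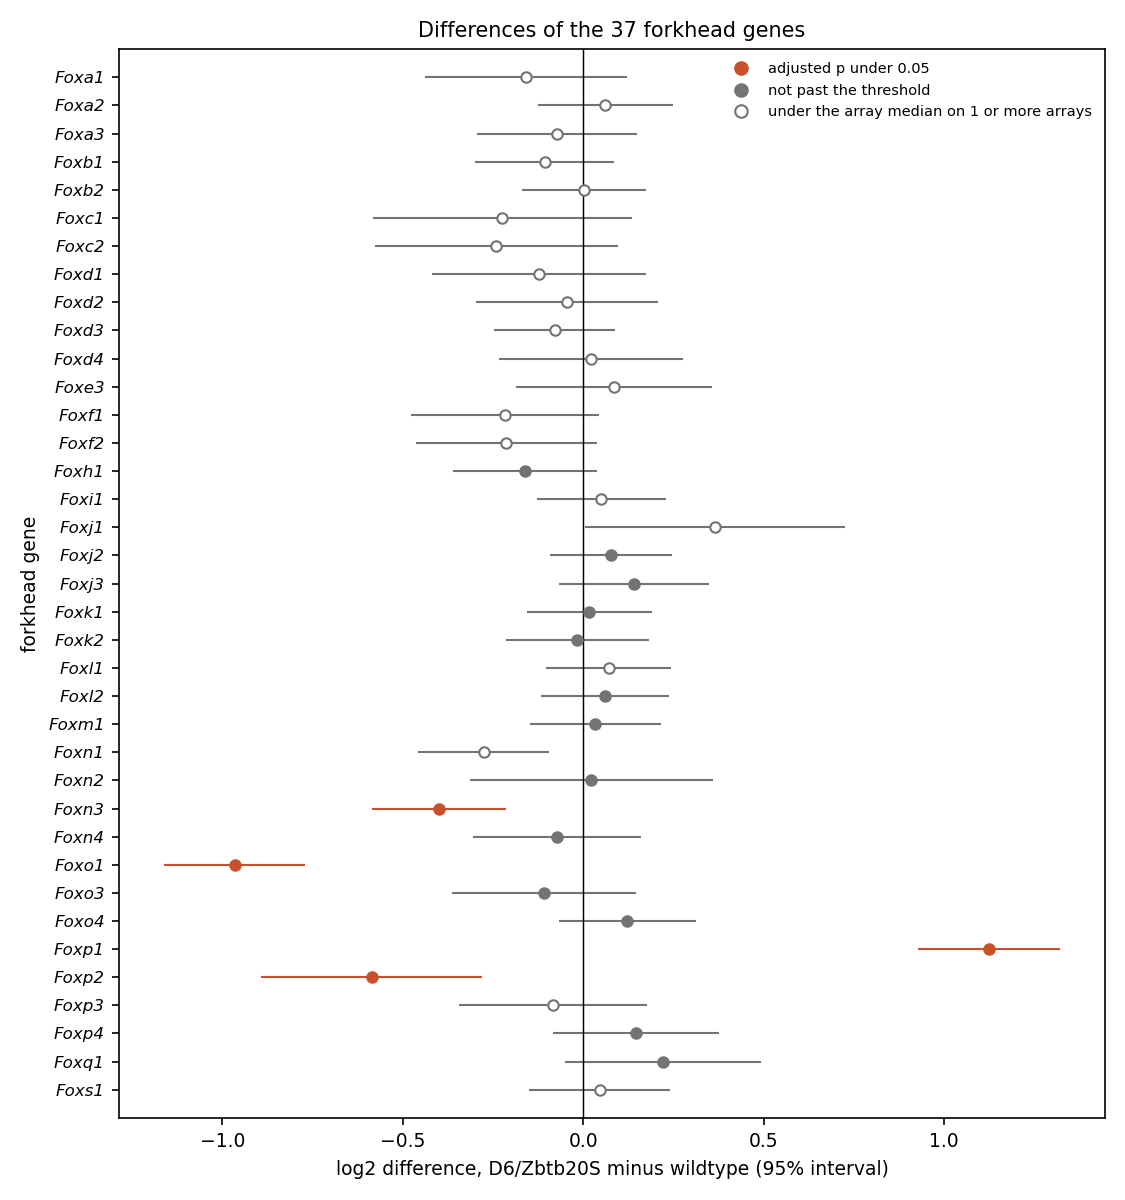
Log2 difference (x axis, D6/Zbtb20S minus wildtype, n = 3 and 3 arrays) with its 95% interval for the brightest probe set of each of the 37 forkhead genes (y axis), red where the limma adjusted p over all genes was under 0.05. Open circles mark genes that read under the array median on at least 1 array. Foxp1 lies alone at the right with 1.12 and Foxo1 at the left with -0.97, while the 33 grey genes lie between -0.28 and 0.37.

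The cell types in which Foxp1 and Foxp2 are known gave different counts, to be read against the 4.06% of all genes called higher and 3.64% called lower. The list of layer VI corticothalamic genes is not confined to that cell type, and it shares Tbr1 and Sox5 with the FoxP list. Of its 12 genes, 7 fell and 3 rose (median -1.30). Among those that fell were Zfpm2, a cofactor of GATA proteins (-2.12, or -1.38 with the mean of its probe sets), Hs3st4, an enzyme of heparan sulphate (-1.67), and Fezf2, a determinant of subcerebral neurons (-1.19). The genes that rose, named after their values were seen, were Crym (2.25), Bcl11b (0.99) and Sla (0.41). The list's summed linear signal rose with them, from 2911 to 3095 in wildtype to 3440 to 3629 in transgenic arrays, so sum and median differ in direction. Of 9 CA1 genes, 2 rose and 0 fell (median 0.38), with the adhesion molecule gene Nectin3 at 1.89 and the mannosidase gene Man1a at 0.53. The CA1 list includes Zbtb20, the gene the transgene carries, so its count and median are not free of the manipulation. The brightest Zbtb20 set, 1437598_at, differed by -0.14 and was not called. Dcn is in both the CA1 and the meningeal fibroblast list. Of 11 striatal projection neuron genes, 3 rose and 0 fell (median 0.09), the homeobox gene Meis2 (0.68), the enkephalin gene Penk (0.66) and the dopamine signalling gene Ppp1r1b (0.44). Man1a, Penk and Ppp1r1b each missed the threshold once wildtype replicate 2 or the first transgenic array was dropped. The summed linear signal of that list was 677 to 739 in wildtype and 914 to 1092 in transgenic arrays, and 6 of its genes were under the array median throughout. Of 10 thalamic genes, 1 fell (median -0.02), the glutamate transporter gene Slc17a6 at -1.26. Of its 2 probe sets 1 was called, and their mean missed the threshold (-0.57, adjusted p = 0.17).

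Markers of other cell types were also called, against the same shares of all genes, and their part in the forkhead values was not tested. Of 12 microglial genes 4 were higher (median 0.40), among them the signalling adaptor gene Tyrobp at 0.69, with summed linear signals of 645 to 682 in wildtype and 831 to 964 in transgenic arrays. Of 8 oligodendrocyte lineage genes 4 were lower (median -0.40, from 1010 to 1205 down to 736 to 834), among them Olig1 at -0.68. Of 11 GABAergic genes 2 were lower (median -0.16), Gad1 at -0.60 and Nxph1 at -0.55. Of 12 radial glia and astrocyte genes 2 were lower, Hopx at -0.66 and Sox2 at -0.42, but the list median was 0.05 and the summed signals overlapped (5866 to 6508 in wildtype, 6120 to 6330 in transgenic arrays). Some of these counts rest on single arrays. The microglial gene Fcrls and Nxph1 each lost their call on leaving out wildtype replicate 1 or 2, or the first or the third transgenic array (adjusted p up to 0.125 and 0.135). Sox2 lost its own with the replicate block (adjusted p = 0.0717) and on leaving out wildtype replicate 2 or 3, or the second or the third transgenic array (adjusted p up to 0.135). None of 10 Cajal-Retzius genes (median -0.02) and none of 8 choroid plexus genes (median 0.004) was called by limma. Of the choroid plexus genes, 6 were under the array median on all arrays. Without wildtype replicate 3, 1 Cajal-Retzius and 1 mural gene were higher, 0 endothelial genes were lower, 2 thalamic genes were lower, and 2 radial glia and astrocyte genes were higher with 1 lower.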

How the data were processed

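The authors deposited log2 values of 6 Affymetrix arrays hybridised with biotin-labelled material. Per the submitters' processing notes RMA and limma were used; their versions and order are not given in the sources used here. The log2 scale was taken from the range of the values. Array medians of 3.83 to 3.97 leave the last scaling and any centring unknown. The number of arrays limits the precision.

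After removal of 64 control probe sets, 45037 were tested. The platform annotation gave 34945 of them 1 symbol, 932 several and 9160 none; of those with 1, 34741 matched a GRCm38.p6 gene by gene ID. Probe sets with several symbols, 2 of which list a forkhead gene, gave no name. Differences, standard errors and 95% intervals came from limma 3.58.1 (lmFit, eBayes, no covariates) in R 4.3.3, adjusted by Benjamini-Hochberg over all genes or all probe sets. Promoter windows came from RefSeq (GRCm38.p6). Figures used matplotlib 3.10.9.

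The members, 18 gene lists (238 genes, 228 measured) and tests were chosen with earlier results of these data known. Every forkhead gene could be named; of a list, up to 4 called genes with the smallest p, and others only as stated. Data were simulated for this comparison over 18193 genes with 200 changed. The fit recovered 86% of changes of 0.5 and 99% of changes of 1 (log2), and 7.96% of calls were false. Simulated noise was independent for each gene, with no outlying array and no signal floor, so these rates need not hold for the real arrays. Alternatives were a replicate block, each array left out, array weights, quantile normalization, equal medians, a trend on intensity, bright probe sets only (above the array median on at least 3 arrays), probe set means and an ordinary linear model. Probe-level files were not used here, and 1 further gene list is not reported here.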

Additional observations from a re-analysis of the deposited data

How the results depend on the processing

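In the fits over genes, Foxp1 and Foxo1 kept their direction and call in all 14 alternatives. Their log2 differences were 1.06 to 1.31 and -1.04 to -0.58. Over all probe sets, however, the ordinary linear model called 2 of 8 Foxp1 sets and 0 of 4 Foxo1 sets. Foxp2 lost its call in 6 (adjusted p up to 0.231) and Foxn3 in 5 (up to 0.44), with the same direction. Forkhead genes called numbered 4 of 37, 2 with probe set means, 2 with the ordinary linear model, and 2 to 4 with 1 array left out. Forkhead probe sets called numbered 12, 2 with the ordinary linear model, and 7 to 12 with 1 array left out. Over all genes 1402 were called, 2707 with array weights, 267 with the ordinary linear model, and 777 to 1538 with 1 array left out, the lowest without wildtype replicate 2 and 837 without D6/Zbtb20S replicate 1. Foxn1 was also called with array weights (adjusted p = 0.016). The members' median difference moved from -0.016 to -0.073 with probe set means and ran from -0.067 to 0.018 with 1 array left out.

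With the replicate block 4 forkhead genes and 1343 genes were called. Over all genes, same-numbered arrays correlated at -0.22, 0.18 and -0.008 in their deviations from group means, so the numbers were not taken as pairs. For the 8 Foxp1 probe sets, however, the highest limma adjusted p was 0.000249 with the block and 0.0485 without it. Of 35 called list genes named by the rule, 12 kept their call in every alternative, 23 lost it with the ordinary linear model and 11 without some array; 0 changed direction. The causes were not tested. Signals near the array floor limit what low members can show.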
